A study of Mus musculus with 8 samples.

Results

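The genes described here encode ion channels and their subunits. They comprise the mechanically gated PIEZO and TMEM63 channels, transient receptor potential (TRP) channels and polycystins. Genes of calcium release and store-operated calcium entry, voltage-gated calcium and sodium channels, potassium channels, chloride channels and transporters, anoctamins, volume-regulated LRRC8 channels and ATP-gated P2X receptors complete the set. They were chosen by gene symbol in the GRCm38 annotation. The symbol rule uses no measured value, but the set was chosen with earlier results of these data known. The symbols picked out 196 of the 55335 genes in the deposited table, all 196 annotated as protein-coding. Trpm6 and Trpm7 were left out of the set. RNA was sequenced in 8 libraries of the established cell line MC3T3-E1, pre-osteoblasts derived from mouse skull. The cells had spent 3 days with TABS (n = 4 libraries), which the series names the Trio-Active bone scaffold, or with HA (n = 4), a magnesium-doped scaffold of hydroxyapatite. The make-up of TABS is not described in the labels. Cells without a scaffold were not analysed here, so each direction is TABS relative to HA.

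Ion channels let calcium, sodium, potassium or chloride cross a membrane when they are opened by stretch, voltage, a ligand or a drop in stored calcium. In cells of the osteoblast lineage, calcium entry through PIEZO1 is known as a main route by which mechanical load is sensed. Calcium is also released from the endoplasmic reticulum through inositol trisphosphate receptors (ITPR). The emptied store is then sensed by STIM proteins, which open ORAI channels in the plasma membrane. Potassium and chloride channels set the membrane voltage and cell volume under which calcium enters.

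Levels were deposited as FPKM (fragments scaled to gene length and to the library's total), which can be compared between genes because of the scaling to length. Summed FPKM ran from 304893 to 307263 in TABS libraries and from 312629 to 317439 in HA libraries. Between 11187 and 11258 genes reached 1 FPKM in TABS libraries, and between 11219 and 11357 in HA libraries. Of 9 osteoblast genes 1 was higher and 5 were lower on TABS (limma), against 4.49% and 2.90% of all tested genes. Alpl, 1 of the 5, entered the test through its HA libraries, where it is high. The osteoblast genes Runx2 (17.3 FPKM in TABS and 18.4 in HA), Sp7 (10.8 and 15.6), Col1a1 (889 and 1171), Col1a2 (673 and 784), Sparc (319.7 and 421), Spp1 (3305 and 2431) and Ibsp (14.5 and 50.3) were all present. Alpl (0.46 and 1.36 FPKM) and Bglap (1.23 and 1.64) were low. Of the markers of neurons, striated muscle, macrophages and endothelium, 0 of 19 averaged 1 FPKM. Smooth muscle markers summed to 177 to 198 FPKM in TABS and 245 to 281 in HA. Of these, Acta2 and Smtn carried the sum while Myh11 and Cnn1 averaged at most 0.041 FPKM in either group. The adipocyte list held Fabp4 (3.15 and 2.94 FPKM) with its other 3 genes below 0.01 FPKM. The chondrocyte list held Sox9 (36.5 and 34.8), Col2a1 (5.49 and 4.32) and Comp (0.46 and 0.34), with Acan near 0. By the same test Acta2 was lower on TABS (limma adjusted p = 0.000926) and Col2a1 higher (limma adjusted p = 0.0393). Smtn, Fabp4 and Sox9 did not pass. The part of these marker differences in the channel results was not tested. In such bulk RNA, fewer cells that express a gene and less RNA per cell cannot be told apart.

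Most channel genes had low values or none. Of the 196 genes, 40 were listed at 0 in every library, 111 were detected but stayed below the filter of 1 FPKM in at least 4 of the 8 libraries, and 45 passed it and were tested. The 45 spanned 15 of 16 families, and 15 of them averaged at least 10 FPKM. The highest was Cacng7, which encodes a gamma subunit related to stargazin that is known in brain as a partner of AMPA-type glutamate receptors. It averaged 70.5 FPKM over the 8 libraries. Other abundant members were Piezo1 at 35.1, Tmem63a at 26.3, Pkd1 at 23.3 and Cacna1g at 21.6 FPKM.

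**Figure D1:**
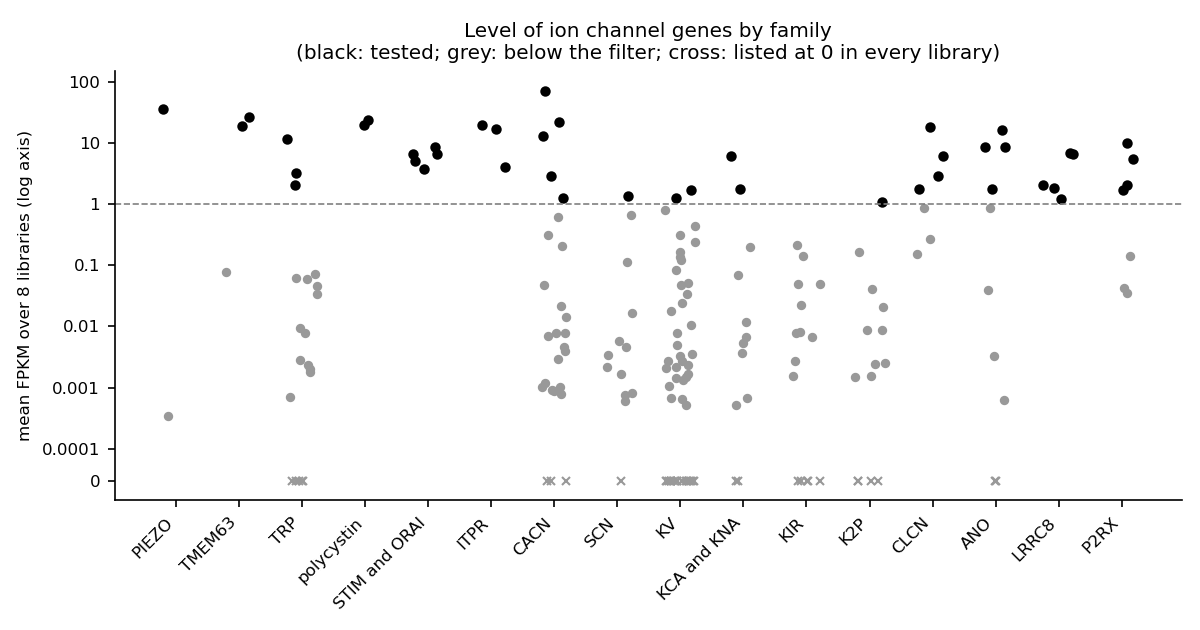
Mean FPKM over the 8 libraries (log axis) for the channel genes, by family and without 1 gene that is not reported, with tested genes in black, detected genes below the filter in grey and genes listed at 0 as crosses. Voltage-gated potassium channel genes (KV) hold 51 members, of which 2 were tested, whereas every STIM, ORAI, ITPR, LRRC8 and polycystin gene was tested.

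Of the 45 tested genes, 7 passed the test (limma, adjusted p under 0.05 over all 11280 tested genes), or 15.6%, against 7.38% of all tested genes. Piezo1, Orai2, Kcnn4, Itpr2, Cacnb3 and Ano6 rose on TABS, and Cacna1g fell. These are 6 genes higher and 1 lower, with 4.49% of all tested genes higher and 2.90% lower. The median fold change of the 45 was 0.04 on the log2(FPKM + 1) scale, against 0.01 over all tested genes, and the median absolute change was 0.10 against 0.083. The libraries of TABS and HA did not overlap in 16 of the 45 genes, 11 with TABS above and 5 with TABS below HA, or 35.6% of them, against 18.0% of all tested genes (10.8% with TABS above and 7.15% with TABS below). The balance of directions moved with scaling. After rescaling to TPM (each library's FPKM brought to the same total), Itpr3, Kcnk2, Lrrc8b and Tmem63b passed as well, so that 10 channel genes were higher and 1 lower, and 915 of all genes were higher and 239 lower, against 506 and 327 with FPKM as deposited. Kcnk2 and Lrrc8b, also among the genes with TABS above without overlap, entered the test through their TABS libraries, where they are high. Quantile normalization gave 8 channel genes higher and 3 lower, with 529 and 372 of all genes. Median-of-ratios scaling gave 6 and 2, with 484 and 364 of all genes.

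**Figure D2:**
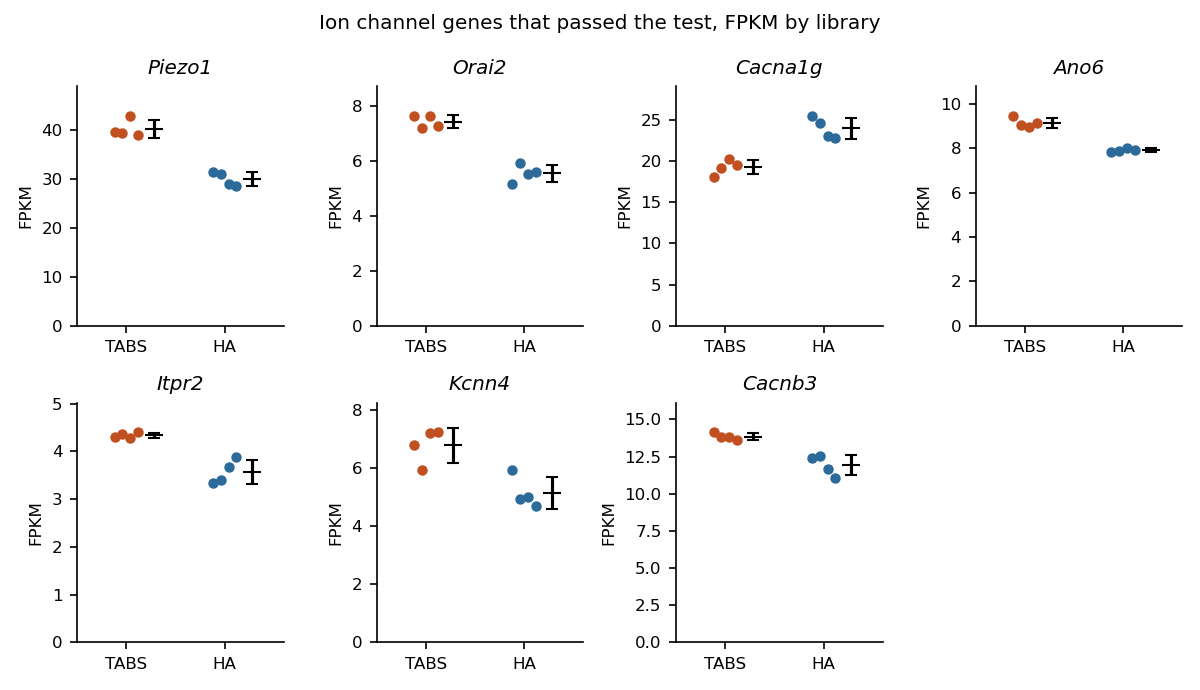
FPKM of the 7 channel genes that passed the test, 1 point per library (TABS left, HA right), with the mean and SD beside the points. In Piezo1 the TABS libraries lie between 39.1 and 42.9 FPKM and the HA libraries between 28.6 and 31.4, and in Cacna1g the TABS libraries lie below all HA libraries.

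The mechanically gated channels were led by Piezo1, a very large protein that forms a trimeric cation channel opened by membrane tension. Piezo1 had 39.7, 39.4, 42.9 and 39.1 FPKM in TABS libraries 1 to 4, against 31.4, 31.0, 29.0 and 28.6 in HA libraries 1 to 4. Every TABS library lay above every HA library. The mean was 40.3 ± 1.77 FPKM for TABS and 30.02 ± 1.39 FPKM for HA (SD, n = 4 libraries each), a log2 fold change of 0.41 ± 0.05 (SE, limma adjusted p = 0.00169). The gene (ENSMUSG00000014444) lies on the minus strand of chromosome 8, GRCm38, from 122481698 to 122551329. Exons of Ctu2 on the opposite strand overlap 2441 bases of the Piezo1 exons, 24.6% of their length. Ctu2 itself averaged 3.35 ± 0.04 FPKM with TABS and 3.37 ± 0.19 with HA (limma adjusted p = 0.94). Its relative Piezo2, the channel of touch-sensing neurons, was listed at 0 in 7 libraries and at 0.0027 FPKM in HA 2.

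Sequences just upstream of the annotated starts are shown for the 3 genes with the largest changes among those that passed. They are read 5′ to 3′ on the gene's strand from RefSeq (GRCm38.p6), which holds an entry for 6 of the 7 genes. Capitals mark matches to 6 motifs sought on both strands in the 150 bases before the start, which were the TATA box (TATAAA), the CCAAT box (written CCAAT), the E-box (CACGTG), the cyclic AMP response element (TGACGTCA), the AP-1 site (TGANTCA) and the TEAD site (GGAATG).
Piezo1 (chr8:122551330-122551479, minus strand): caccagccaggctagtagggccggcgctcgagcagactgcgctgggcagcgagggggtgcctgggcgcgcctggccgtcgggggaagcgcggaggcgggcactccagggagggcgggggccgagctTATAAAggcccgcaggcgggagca
Orai2 (chr5:136170714-136170806, minus strand): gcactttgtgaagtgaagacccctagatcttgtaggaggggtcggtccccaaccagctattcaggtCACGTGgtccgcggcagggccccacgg
Kcnn4 (chr7:24370113-24370262, plus strand): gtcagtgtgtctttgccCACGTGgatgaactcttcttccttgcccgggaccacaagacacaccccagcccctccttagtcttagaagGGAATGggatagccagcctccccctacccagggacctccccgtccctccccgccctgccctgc
The Piezo1 window held TATAAA from 24 to 19 bases before the start, a motif found in 7.57% of 32851 promoter windows of this length. CACGTG stood 133 to 128 bases before the Kcnn4 start. In Orai2 it stood 27 to 22 bases before the end of the printed stretch, which borders the GENCODE gene, and 84 to 79 bases before the RefSeq start, which lies 57 bases further in. A further match 51 to 46 bases before the RefSeq start of Orai2 lies in an exon of the GENCODE annotation and is not printed. This motif was present in 4.30% of all windows, in 10 of 201 windows of channel genes and in 5 of 51 windows of tested channel genes. GGAATG stood 63 to 58 bases before the Kcnn4 start and was present in 7.59% of all windows. No motif overlapped another in these windows, and a match describes letters only.

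None of the other tested members known to respond to membrane stretch passed with FPKM as deposited. Tmem63a and Tmem63b belong to the animal relatives of the OSCA channels of plants, which open under strong membrane stretch. Tmem63b had 20.1, 19.3, 19.7 and 19.6 FPKM in TABS libraries, against 18.3, 18.6, 17.9 and 16.9 in HA libraries, without overlap but also without a call (0.13 ± 0.04, limma adjusted p = 0.0947). Tmem63a averaged 27.1 ± 1.13 FPKM in TABS and 25.4 ± 1.93 in HA (limma adjusted p = 0.371). The third relative, Tmem63c, was below the filter with a mean of 0.077 FPKM. Kcnk2, which encodes the stretch-sensitive potassium channel TREK-1, had 1.29, 1.29, 1.05 and 1.15 FPKM in TABS libraries, against 0.86, 0.90, 1.01 and 0.92 in HA libraries. It did not pass (0.19 ± 0.06, limma adjusted p = 0.0715), and it entered the test through its TABS libraries, since 3 of the 4 HA libraries were below 1 FPKM. It did pass after rescaling to TPM (limma adjusted p = 0.0439) and after quantile normalization (0.0368).

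Of 20 TRP genes 3 were tested and none passed, against 7.38% of all tested genes. Trpv2, a calcium-permeable channel, was the highest, with 11.8, 11.3, 12.4 and 12.1 FPKM in TABS libraries and 10.5, 11.2, 11.3 and 9.81 in HA libraries. All TABS values lay above all HA values by a narrow margin (0.14 ± 0.05, limma adjusted p = 0.137). Trpv4, which is opened by osmotic swelling and heat, averaged 3.04 ± 0.23 FPKM in TABS and 3.32 ± 0.30 in HA (limma adjusted p = 0.384). Trpm4, a sodium-conducting channel opened by intracellular calcium, stood at 2.04 ± 0.13 and 2.09 ± 0.13 FPKM (limma adjusted p = 0.824). None of the 7 TRPC genes exceeded a mean of 0.0028 FPKM, and 4 of them, including Trpc1, were listed at 0 in every library. Another of the 4, Trpc2, shares 97.5% of its exon length on the same strand with Xntrpc (0.15 FPKM in TABS and 0.13 in HA), so its 0 is uncertain. The irritant receptor gene Trpa1 averaged 0.0094 FPKM. Pkd1 and Pkd2, whose products form the polycystin complex of the primary cilium, were both abundant. Pkd1 averaged 23.9 ± 0.83 FPKM in TABS and 22.7 ± 1.30 in HA (limma adjusted p = 0.412), and Pkd2 19.7 ± 0.60 and 19.4 ± 0.99 (limma adjusted p = 0.805).

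In the store-operated calcium pathway, Orai2 was the 1 gene of 5 to pass, against 7.38% of all tested genes. It encodes 1 of the 3 ORAI pore proteins. Orai2 had 7.65, 7.21, 7.63 and 7.27 FPKM in TABS libraries, against 5.18, 5.93, 5.52 and 5.62 in HA libraries. The groups were well apart, with means of 7.44 ± 0.23 and 5.56 ± 0.31 FPKM (log2 fold change 0.36 ± 0.05, limma adjusted p = 0.00284). The gene (ENSMUSG00000039747) lies on chromosome 5 from 136147459 to 136170713. Orai1, the pore that carries most store-operated current in many cell types, had 6.88, 6.05, 7.16 and 7.75 FPKM in TABS libraries and 6.86, 5.83, 6.40 and 5.96 in HA libraries. These ranges overlapped (0.13 ± 0.07, limma adjusted p = 0.314). Orai3, a mammalian paralogue, had 8.87, 8.68, 3.93 and 10.5 FPKM in TABS libraries and 9.83, 9.50, 8.30 and 8.26 in HA libraries. The low value in TABS 3 set the sign of its difference, which was -0.21 ± 0.23 with all libraries (limma adjusted p = 0.612) and 0.05 without TABS 3. The calcium sensor gene Stim1 averaged 3.54 ± 0.19 FPKM in TABS and 3.88 ± 0.22 in HA (limma adjusted p = 0.256). Stim2, the sensor of small losses of stored calcium, had 4.71, 4.68, 6.43 and 4.76 FPKM in TABS libraries and 4.18, 4.09, 4.66 and 7.25 in HA libraries. A single library in each group was high for Stim2, and the groups overlapped (limma adjusted p = 0.903).

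Within this pathway Orai2 made up 24.1% ± 2.17 of the summed FPKM of the 5 genes in TABS and 18.7% ± 1.42 in HA, and the 2 ranges did not overlap (21.4% to 26.7% and 17.1% to 20.4%). The highest Orai2 share was that of TABS 3, where Orai3 was low and the sum of the 5 genes was 28.6 FPKM. Stim1 made up 11.4% ± 0.47 in TABS and 13.04% ± 0.53 in HA, also without overlap (11.1% to 12.1% and 12.6% to 13.8%). The sum itself was 31.1 ± 2.34 FPKM in TABS and 29.7 ± 1.09 in HA. These shares are descriptions and were not tested.

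The 3 inositol trisphosphate receptor genes, which encode the calcium release channels of the endoplasmic reticulum, did not move in 1 direction. Itpr2 had 4.30, 4.37, 4.29 and 4.40 FPKM in TABS libraries, against 3.34, 3.41, 3.67 and 3.88 in HA libraries. It rose (0.22 ± 0.05, limma adjusted p = 0.0271), and it is the least abundant of the 3. Itpr3 had 21.0, 20.3, 21.2 and 20.1 FPKM in TABS libraries and 19.0, 19.0, 18.0 and 17.3 in HA libraries. Its groups did not overlap, and it fell just short of the threshold (0.16 ± 0.04, limma adjusted p = 0.0527). Itpr1 had 15.6, 16.1, 15.8 and 15.8 FPKM in TABS libraries, against 17.3, 17.3, 17.1 and 18.5 in HA libraries. All TABS values lay below all HA values, again without a call (-0.14 ± 0.04, limma adjusted p = 0.0601). Itpr1 passed after median-of-ratios scaling, quantile normalization, a filter of 5 FPKM and a correction for GC content and length (lowest limma adjusted p = 0.0256). Itpr3 passed after rescaling to TPM and with the filter of 5 FPKM (lowest limma adjusted p = 0.0215). Itpr2 was not called without any single library except HA 4 (limma adjusted p up to 0.075), nor with no filter on low FPKM.

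As shares of the family, Itpr1 made up 38.8% ± 0.68 in TABS and 44.5% ± 1.44 in HA, Itpr3 50.6% ± 0.88 and 46.4% ± 2.02, and Itpr2 10.6% ± 0.23 and 9.07% ± 0.66 (SD, n = 4 each). For each of the 3 genes the TABS shares lay on 1 side of the HA shares. The 3 shares make up the whole family in each library, so they are not separate observations. Summed FPKM of the family was 40.8 ± 0.41 in TABS and 39.4 ± 0.43 in HA. No test was made on shares.

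**Figure D3:**
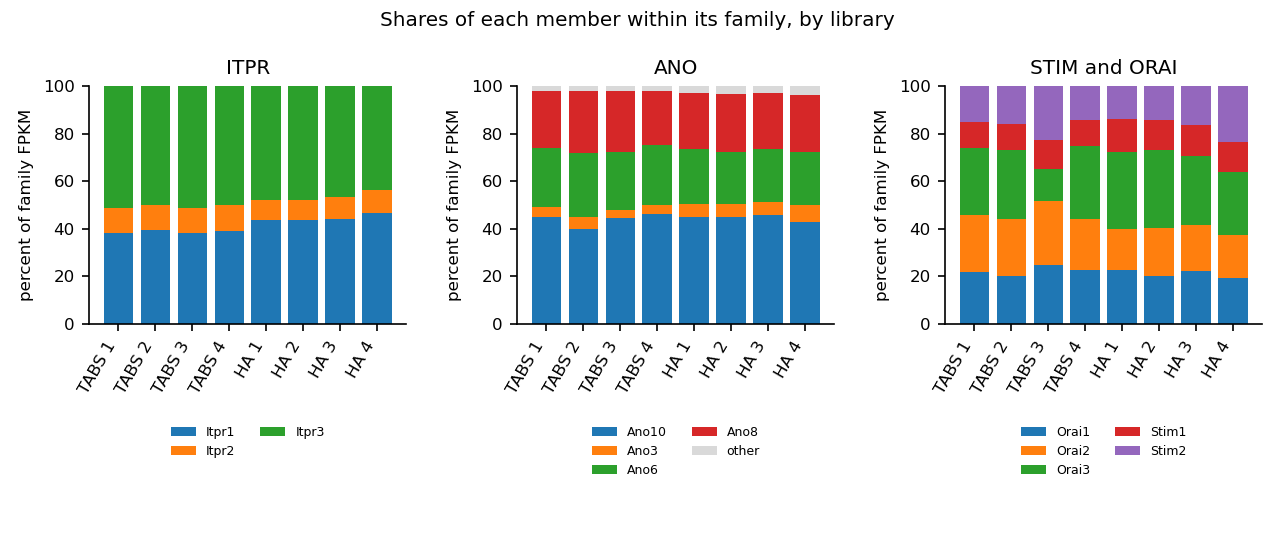
Share of each member in the summed FPKM of the ITPR, anoctamin (ANO) and STIM and ORAI families, 1 bar per library, TABS libraries left of HA libraries; grey in the ANO panel is the sum of genes below the filter. Itpr1 holds 38.2% to 39.5% in TABS libraries and 43.6% to 46.6% in HA libraries, and Orai3 drops to 13.7% in TABS 3.

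Voltage-gated calcium channels (CACN) held a call in each direction. Cacna1g encodes the pore of the low-voltage-activated T-type channel Cav3.1, and was the single pore gene tested among 10. It had 18.1, 19.2, 20.2 and 19.5 FPKM in TABS libraries, against 25.5, 24.6, 23.1 and 22.8 in HA libraries. Every TABS library was below every HA library, with means of 19.3 ± 0.88 and 24.0 ± 1.27 FPKM (-0.30 ± 0.05, limma adjusted p = 0.00913). The gene (ENSMUSG00000020866) lies on chromosome 11 from 94408391 to 94474198. The other 9 pore genes averaged at most 0.605 FPKM, which was the value of the P/Q-type gene Cacna1a. Cacna1c, the L-type pore often studied in bone cells, averaged 0.24 ± 0.04 FPKM in TABS and 0.17 ± 0.06 in HA and was not tested.

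Cacnb3 encodes a cytosolic beta subunit that brings high-voltage-activated pores to the membrane. It had 14.1, 13.8, 13.8 and 13.6 FPKM in TABS libraries, against 12.4, 12.5, 11.6 and 11.1 in HA libraries. The groups were apart (0.20 ± 0.05, limma adjusted p = 0.032). That call was lost without any 1 TABS library and without HA 3 or HA 4 (limma adjusted p up to 0.0875), and with no filter on low FPKM. Cacng7 had 75.5, 70.4, 72.1 and 79.1 FPKM in TABS libraries and 72.3, 67.2, 65.9 and 61.6 in HA libraries, with overlap and no call (0.15 ± 0.06, limma adjusted p = 0.145). Cacnb1 (2.73 ± 0.09 and 3.02 ± 0.20 FPKM in TABS and HA) and the alpha2delta gene Cacna2d1 (1.20 ± 0.08 and 1.29 ± 0.14) did not pass either. Together the family had 26 genes, 5 tested, 1 higher and 1 lower, against 4.49% higher and 2.90% lower of all tested genes.

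Of 14 sodium channel genes 2 were tested and 0 passed, against 7.38% of all tested genes. Scn3a, the pore of Nav1.3, was the 1 pore gene of 10 above the filter, at 1.21 ± 0.09 FPKM in TABS and 1.49 ± 0.13 in HA (-0.17 ± 0.06, limma adjusted p = 0.0947). Scn2a followed at 0.66 FPKM over the 8 libraries, below the filter.

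Potassium channel genes made up 92 of the 196, and 5 of the 92 were tested. Their summed FPKM was 16.1 in TABS and 14.4 in HA. Kcnn4, which encodes the calcium-activated intermediate-conductance channel KCa3.1, was by level the first of them. Kcnn4 had 6.78, 5.93, 7.21 and 7.22 FPKM in TABS libraries, against 5.93, 4.94, 4.997 and 4.71 in HA libraries. TABS 2 and HA 1 almost met, at 5.935 and 5.929 FPKM, and the remaining libraries were well apart. The means were 6.79 ± 0.60 and 5.14 ± 0.54 FPKM (0.34 ± 0.08, limma adjusted p = 0.0303). The gene (ENSMUSG00000054342) lies on chromosome 7 from 24370263 to 24386690. Its call held without TABS 2 or HA 1 and was lost without each of the other 6 libraries (limma adjusted p up to 0.0851). Kcnt2, a sodium-activated channel gene, averaged 1.53 ± 0.12 FPKM in TABS and 1.92 ± 0.28 in HA, without overlap (-0.20 ± 0.07, limma adjusted p = 0.127). Of 40 voltage-gated pore genes Kcnd1 alone passed the filter (1.27 ± 0.05 and 1.24 ± 0.21 FPKM). Of 11 auxiliary genes Kcnab2 alone did (1.73 ± 0.05 and 1.61 ± 0.10 FPKM), with no call on either gene. None of 15 inward rectifier genes (KCNJ) reached the filter, and their highest mean was 0.21 FPKM, in Kcnj15.

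**Figure D4:**
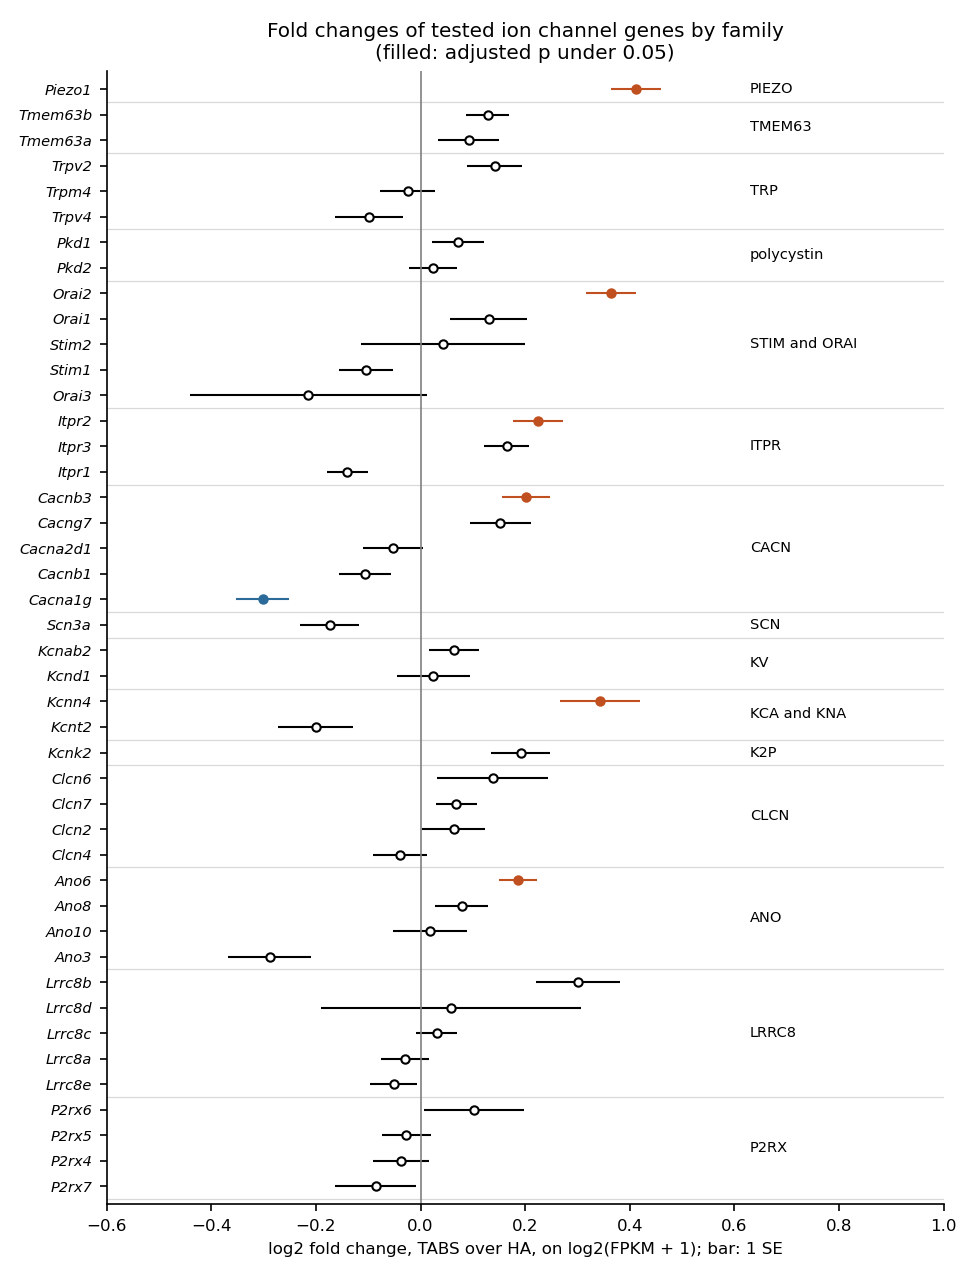
Log2 fold change of TABS over HA, on the log2(FPKM + 1) scale, with its SE for the tested genes by family, without 1 gene that is not reported; filled points passed the test. Piezo1 at 0.41 and Cacna1g at -0.30 lie at the ends. The TRP, STIM and ORAI, ITPR, CACN, KCA, CLCN, ANO, LRRC8 and P2RX families hold points on both sides of 0.

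Anoctamins (ANO) are known as calcium-activated chloride channels and lipid scramblases. Ano6, a scramblase that exposes phosphatidylserine on the cell surface, had 9.45, 9.02, 8.96 and 9.14 FPKM in TABS libraries, against 7.85, 7.89, 8.02 and 7.91 in HA libraries. The spread within each group was small beside the gap between them (0.19 ± 0.04, limma adjusted p = 0.0182). Ano6 (ENSMUSG00000064210) lies on chromosome 15 from 95790843 to 95974751, and 214 bases of its exons, 1.74%, overlap the opposite-strand gene A130051J06Rik. A further 122 bases overlap the opposite-strand gene Gm49172, which averaged 5.56 ± 0.46 FPKM in TABS and 5.002 ± 0.34 in HA (0.13, limma adjusted p = 0.262). Its call was lost without TABS 1, TABS 4 or HA 2 (limma adjusted p up to 0.06). Ano3 had 1.52, 1.73, 1.26 and 1.40 FPKM in TABS libraries and 1.86, 1.82, 2.03 and 2.41 in HA libraries. All TABS values were below all HA values, with no call (-0.29 ± 0.08, limma adjusted p = 0.061). Ano10, the most abundant anoctamin gene, averaged 15.996 ± 1.64 FPKM in TABS and 15.7 ± 0.60 in HA (limma adjusted p = 0.908), and Ano8 8.89 ± 0.55 and 8.36 ± 0.30 (limma adjusted p = 0.38).

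Ano2, which encodes a calcium-activated chloride channel known from sensory neurons, missed the filter, since only 2 libraries reached 1 FPKM. It had 0.68, 0.66, 0.74 and 0.65 FPKM in TABS libraries, against 0.96, 1.06, 0.99 and 1.22 in HA libraries, without overlap. With a filter of 0.1 FPKM and a pseudocount of 0.1 it was tested and passed (-0.56 ± 0.10, limma adjusted p = 0.0168), where 4.61% of 15931 genes did. Under that filter 66 channel genes were tested, and the same 7 genes passed along with Ano2. Kcnh2, the gene of the potassium channel known as hERG in human, came next at 0.95 ± 0.11 FPKM in TABS and 0.64 ± 0.10 in HA (0.51 ± 0.12, limma adjusted p = 0.0537 under the same filter). Ano2 and Kcnh2 were named after their values were seen.

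None of the tested CLCN, LRRC8 and P2RX genes passed with FPKM as deposited, against 7.38% of all tested genes. Of 7 CLCN genes 4 were tested, led by Clcn7, the chloride-proton exchanger of lysosomes, at 18.8 ± 0.41 FPKM in TABS and 17.9 ± 0.56 in HA (limma adjusted p = 0.316). Clcn4 (5.96 ± 0.36 and 6.16 ± 0.28 FPKM), Clcn6 (3.06 ± 0.50 and 2.68 ± 0.38) and Clcn2 (1.84 ± 0.19 and 1.71 ± 0.10) overlapped between groups. All 5 LRRC8 genes, subunits of the volume-regulated anion channel, were tested. Lrrc8a, the subunit every such channel needs, had 7.20, 6.61, 6.57 and 6.71 FPKM in TABS libraries and 6.56, 7.14, 6.94 and 7.08 in HA libraries (limma adjusted p = 0.745). Its values are uncertain, since 66.2% of its exon length is shared with the model Gm28035. The partner Lrrc8b had 1.66, 1.42, 1.27 and 1.31 FPKM in TABS libraries, against 0.92, 0.83, 0.86 and 1.24 in HA libraries. TABS lay above HA, 3 HA libraries were below 1 FPKM, and the test was missed (0.30 ± 0.08, limma adjusted p = 0.0551). Lrrc8b thus entered the test through its TABS libraries, where it is high. It passed without HA 4, its highest HA library (limma adjusted p = 0.0227). It also passed with TPM or quantile scaling and after the GC and length correction (lowest limma adjusted p = 0.0154). Lrrc8d ran from 1.12 to 3.28 FPKM in TABS and from 1.19 to 3.32 in HA, a spread within each group larger than any difference between them.

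Among ATP-gated P2X receptor genes, 4 of 7 were tested. P2rx4 had 9.95, 9.01, 10.3 and 10.4 FPKM in TABS libraries and 10.02, 10.7, 10.3 and 9.70 in HA libraries (limma adjusted p = 0.724). P2rx5 averaged 5.31 ± 0.20 FPKM in TABS and 5.43 ± 0.28 in HA. P2rx6 averaged 2.17 ± 0.21 and 1.96 ± 0.40. P2rx7, the receptor for high ATP that has been studied in osteoblasts, averaged 1.63 ± 0.22 and 1.79 ± 0.22. All 4 overlapped between the groups.

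Genes that handle the same ions were read from 6 lists, with up to 3 genes of each named by lowest adjusted p. Their counts of calls stand against 7.38% of all tested genes (4.49% higher and 2.90% lower). Calcium pumps and exchangers had 0 calls among 6 tested genes (median log2 fold change 0.04). The mitochondrial sodium-calcium exchanger gene Slc8b1 came nearest, at 12.2 ± 0.92 FPKM in TABS and 10.4 ± 0.46 in HA (limma adjusted p = 0.0657), ahead of the plasma membrane pump gene Atp2b4 (0.103) and the endoplasmic reticulum pump gene Atp2a2 (0.286). The mitochondrial calcium uniporter list had 0 calls among 7 (median 0.07), with Mcu and Letm1 at limma adjusted p of 0.374 and 0.398. Calmodulin, its kinases, calcineurin and NFAT had 0 calls among 19 (median 0.04), with Camkk1, Camk1d and Ppp3r1 at limma adjusted p of 0.11, 0.196 and 0.209. The sodium pump and cation-chloride cotransporter list held 2 calls among 9. Slc12a2, the inward sodium-potassium-chloride cotransporter NKCC1, fell, with 4.67, 4.72, 4.33 and 4.68 FPKM in TABS libraries against 5.86, 5.66, 6.07 and 6.84 in HA libraries (-0.34 ± 0.06, limma adjusted p = 0.0097). Slc12a7, the outward potassium-chloride cotransporter KCC4, rose to 1.94 ± 0.07 FPKM in TABS against 1.55 ± 0.11 in HA (0.20 ± 0.05, limma adjusted p = 0.0419). The call on Slc12a7 was lost without any 1 library except HA 1 (limma adjusted p up to 0.107).

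Channel genes outside the symbol rule held 3 calls among 19 tested, 1 higher and 2 lower, against 7.38% of all tested genes. Panx3, a pannexin of osteoblasts and chondrocytes that forms ATP-releasing channels, had 0.85, 1.16, 1.02 and 1.10 FPKM in TABS libraries, against 1.96, 1.87, 1.87 and 1.95 in HA libraries (-0.52 ± 0.06, limma adjusted p = 0.00122). Hvcn1, the voltage-gated proton channel, fell to 9.10 ± 0.62 FPKM in TABS against 12.5 ± 0.76 in HA (-0.42 ± 0.06, limma adjusted p = 0.00424). Ttyh3, of the tweety family, rose to 29.5 ± 1.34 FPKM in TABS against 22.7 ± 1.23 in HA (0.37 ± 0.05, limma adjusted p = 0.00383). The groups did not overlap in these 3 genes, as in 18.0% of all tested genes. The 3 were named for their low adjusted p, so this adds no support. The list of Piezo, STIM and ORAI regulators held 1 call among 11, on Tmem206, which is the proton-activated chloride channel gene Pacc1 and not a regulator of those channels. Tmem206 had 6.26, 6.26, 6.26 and 6.41 FPKM in TABS libraries, against 4.16, 4.78, 5.89 and 4.65 in HA libraries (0.32 ± 0.08, limma adjusted p = 0.0422), a call lost without any 1 library except HA 3 (up to 0.103). Stom, a stomatin that binds membrane channels, and its relative Stoml1 did not pass (limma adjusted p of 0.14 and 0.262).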

How the data were processed

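The deposited table holds 1 FPKM value per gene and library, made by the authors. The submitters' processing notes name fastp, STAR, DESeq2 and GRCm38, with no versions or roles; neither the FPKM program nor the annotation and strand option is stated there. Per the labels' protocols, RNA (integrity number above 7) was read as paired reads of 150 bases. No label ties the replicates to separate cultures; p-values therefore reflect the spread among these libraries alone, possibly technical. Columns were assigned by the library names in the labels, where H marks TABS libraries and L marks those of HA. The letters are not the initials of their groups, and H is the initial of the other group, HA. No gene could check them, so that a swap would reverse every direction given. Strand is not stated, so reads of overlapping genes cannot be told apart.

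Of 55335 identifiers, 55154 were found in GENCODE vM21. Low values of single-exon genes were whole multiples of 1 step, within 0.02, in only 12.7% to 22.7% of cases, so reads were not recovered, depth is unknown and no count test was run. Genes with at least 1 FPKM in at least 4 of 8 libraries (11280) entered limma 3.58.1 (R 4.3.3) as log2(FPKM + 1), the pseudocount being 1, with a variance trend, two-sided and without a block, at Benjamini-Hochberg adjusted p under 0.05. Fold changes on this scale understate changes of low genes. The fit was tested on simulated data with independent noise for each gene and library, which does not cover pairing or unequal library totals. Members, lists and tests were chosen with earlier results of these data known. Named are the members that passed, Piezo1, Piezo2, the highest tested member of each family, the 5 nearest to the threshold and up to 3 genes per list; other members are given by level. Scn3a, Kcnt2, Tmem63b, Orai1, Stim1 and Stim2 and further members with a p were named after their values were seen. Same-numbered libraries did not deviate together (r from -0.10 to 0.10). Alternatives covered scaling, pseudocount, filter, variance model, block, GC content and length, and leaving out each library. Values of 3 genes of the set and lists are not reported here, though the genes stay in the counts.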

Additional observations from a re-analysis of the deposited data

Results flagged for a closer look

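In 6 of 90 groups of 4 libraries (45 tested channel genes in TABS and in HA), 1 library stood apart from the other 3 by the Dixon criterion, in which the gap to the nearest value as a share of the group's range passes Dixon's 95% limit. Chance flags about 1 in 20 groups. In 3 of the 6 the library was TABS 3, which was high for Stim2 (6.43 FPKM against 4.68 to 4.76, ratio 0.955), Pkd1 (25.1 against 23.4 to 23.5, ratio 0.895) and Piezo1 (42.9 against 39.1 to 39.7, ratio 0.85). Without TABS 3 the fold change of Piezo1 was 0.38 (limma adjusted p = 0.00568). HA 4 was high for Itpr1 (18.5 FPKM against 17.1 to 17.3, ratio 0.839) and Kcnt2 (2.33 against 1.73 to 1.83, ratio 0.837). TABS 2 was low for Clcn6 (2.31 FPKM against 3.25 to 3.41, ratio 0.855).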

How the results depend on the processing

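Piezo1 passed in all 21 alternatives (log2 fold change 0.34 to 0.46, limma adjusted p up to 0.0243). Orai2 passed in 20, missing with the GC and length correction together with the replicate block (0.0522), and Cacna1g in 20, missing with the replicate block (0.0708). Ano6 passed in 16 of 21, Kcnn4 and Cacnb3 in 12 of 21 and Itpr2 in 10 of 20. Over all tested genes 833 passed, against 542 with no filter on low FPKM and 415 to 718 with 1 library left out. The 6 channel genes higher became 10 after rescaling to TPM, 3 with no filter and 2 to 5 with 1 library left out; the 1 lower became 2 with median-of-ratios scaling, no filter, a filter of 5 FPKM or a filter of 0.1 FPKM with pseudocount 0.1, and 3 with quantile normalization or the GC and length correction. Whether the numbers pair the libraries is unknown. In deviations from group means, 2 of 8 libraries correlated best with the opposite library of their own number, which cannot settle pairing. Blocking on the replicate number left 230 genes that passed, 2 channel genes higher and 0 lower. With the block and the GC and length correction 321 passed, 2 and 1 of them channel genes. Differences near 0 changed sign, none of them called: Orai3 (0.051 without TABS 3, and -0.35 to 0.051 with 1 library left out), Lrrc8a (0.0068) after TPM rescaling, P2rx4 (0.0040 without TABS 2, and -0.058 to 0.0040 with 1 library left out), Ano10 (-0.00099 with quantile normalization, -0.021 after the GC and length correction with or without the block, and -0.016 to 0.090 with 1 library left out), and Clcn7 (-0.0015) and Ppp3r1 (0.015) after that correction with or without the block. The causes were not tested. Depth is unknown, so for genes near 0 FPKM absence cannot be told from too few reads.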
